A study of Homo sapiens with 2 samples.

Results

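The 42 genes described here encode the protein core of the spliceosome, the machine that removes introns from pre-mRNA. They were chosen by symbol, as the listed small nuclear ribonucleoprotein (snRNP), SF3, U2AF, PRPF and LSM genes, and all 42 were found among the 58884 Ensembl gene IDs of each library. The groups were T24/R cells given 1600 nM THZ1 and T24/R cells given DMSO, the solvent, both for 6 h. T24/R is a human bladder line whose name points to the urothelial carcinoma line T24, and the series title speaks of chemonaïve and chemoresistant carcinoma without a label that says which this line is. THZ1 covalently inhibits CDK7, the TFIIH kinase that phosphorylates RNA polymerase II, and has CDK12 and CDK13 as further targets. Each group had 1 library of the same line, with no replicate, so no p-value is given, and a difference seen here compares 2 libraries.

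Each spliceosomal snRNP is built on a small nuclear RNA. The Sm proteins SNRPB, SNRPD1, SNRPD2, SNRPD3, SNRPE, SNRPF and SNRPG close into a ring around the U1, U2, U4 and U5 RNAs, while the LSM2 to LSM8 proteins form the matching ring of U6. U1 recognises the 5′ splice site, U2 with its SF3A and SF3B complexes holds the branch point, U2AF reads the polypyrimidine tract and the 3′ splice site, and the U4/U6.U5 tri-snRNP brings the catalytic RNAs. U11 and U12 do the work of U1 and U2 on the rare minor introns. Most of these genes are expressed in every cell type.

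The THZ1 library held 18313827 counts over 23528 genes and the DMSO library 18445831 counts over 23986 genes. Library scaling used TMM, and a gene was called higher or lower in THZ1 when it differed 2-fold or more from DMSO with a 95% interval that did not contain 1. Intervals are exact Clopper-Pearson intervals that cover counting error only, because each group has 1 library, and the spread between cultures is unknown. PCR copies were not separated by molecular identifiers, so the intervals can be too narrow even for counting error. The epithelial keratin gene KRT18 had 494 counts in THZ1 and 696 in DMSO, and KRT8 had 100 in THZ1 and 77 in DMSO. Other epithelial markers were low: KRT7 had 17 counts in THZ1 and 18 in DMSO. EPCAM had 3 in THZ1 and 0 in DMSO, CDH1 3 in THZ1 and 2 in DMSO, and KRT19 1 in each. Of 10 urothelial markers 4 were at 0 in each library, with UPK1B, UPK3A and KRT20 at 0 in both. FOXA1 had 21 counts in THZ1 and 129 in DMSO, GATA3 12 in THZ1 and 25 in DMSO, and UPK1A 5 in THZ1 and 10 in DMSO. KRT5, UPK2, UPK3B and PPARG had at most 5. Among fibroblast markers LUM had 69 counts in THZ1 and 34 in DMSO, and COL1A1 20 in THZ1 and 30 in DMSO. DCN had 5 in THZ1 and 9 in DMSO, and COL1A2 0 in each. In bulk RNA, fewer cells that express a gene and less of its RNA per cell cannot be told apart.

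All 42 members passed the count minimum of 30, and their counts ran from 57 to 15341. After THZ1, 7 of them were higher by the rule, 3 were lower and 32 were neither. Among all 12457 tested genes 9.70% were higher and 21.3% lower, and among the 10881 tested coding genes 7.61% were higher and 22.0% lower. For the members the shares were 16.7% higher and 7.14% lower. The median log2 ratio of the members was 0.28 (order-statistic interval over genes −0.10 to 0.41), beside −0.03 for all tested genes. The 7 higher genes were LSM3, SF3B6, SNRPE, SNRPF, LSM5, SNRPD2 and SNRPG, and the 3 lower ones were U2AF1, PRPF4 and SNRNP40. When ratios were corrected for transcript length and GC content 1 member was higher and 5 were lower, beside 8.78% higher and 19.6% lower among all tested genes. The direction also depends on the scale: with total counts all log2 ratios move by −0.51, which leaves 1 member higher and 8 lower beside 2.95% higher and 34.2% lower among all tested genes. With the mitochondrially encoded mRNAs as the reference they move by −1.69, which leaves 0 members higher and 32 lower beside 80.3% lower among all tested genes. Counts per gene give no absolute amount of RNA per cell.

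**Figure D1:**
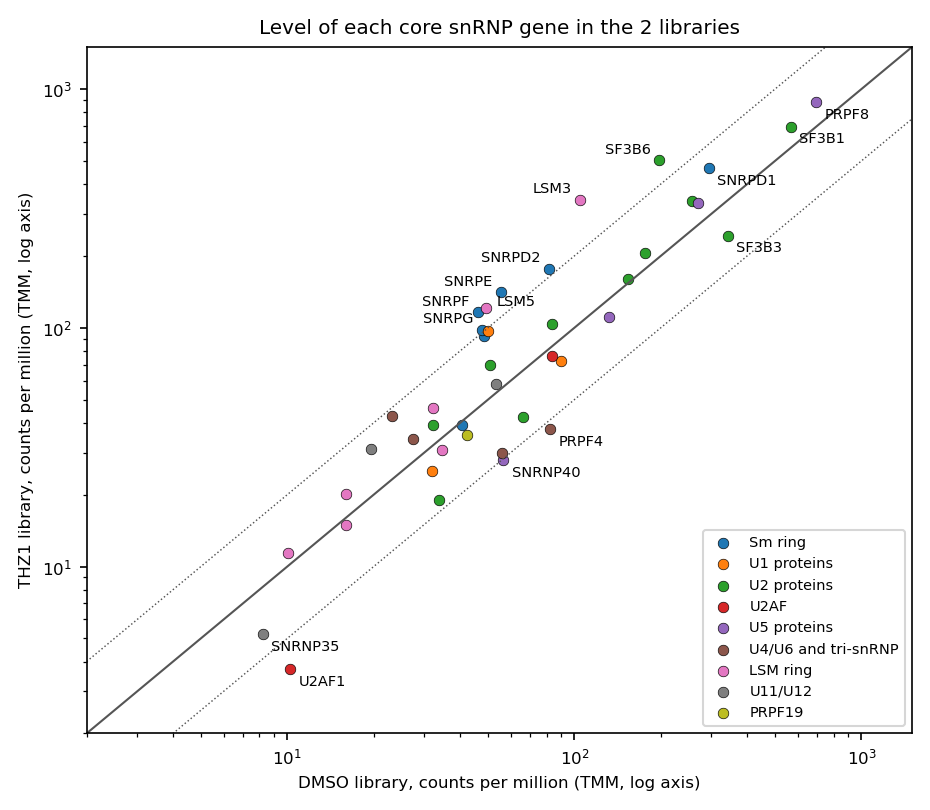
Level of each of the 42 genes in CPM, the count per 1000000 counts of the TMM effective library size, with the DMSO library on the horizontal and the THZ1 library on the vertical log axis; the solid line marks equal levels and the dotted lines a 2-fold difference. LSM3, SF3B6 and 5 genes of the Sm and LSM rings lie above the upper dotted line, and U2AF1, PRPF4 and SNRNP40 lie below the lower one.

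The members together took 92592 counts in THZ1, or 0.506% of the library (0.502% to 0.509%), and 100789 counts in DMSO, or 0.546% (0.543% to 0.550%). The Sm ring genes alone had 17299 counts in THZ1 and 13538 in DMSO, which is 1129 in THZ1 and 614 in DMSO per 1000000 counts of the TMM effective library size (CPM). The LSM ring genes had 9015 counts in THZ1 and 5803 in DMSO, or 588 CPM in THZ1 and 263 CPM in DMSO. Both rings therefore held a larger share of the THZ1 library, while the whole list held a smaller share of raw counts.

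Regions before the start sites of members at both ends of the ratio scale are shown next, because their RNA differed in opposite directions between the same libraries. They are RefSeq promoters on GRCh38.p14, 250 bases before to 50 bases after the annotated start, on the strand of the gene. Capitals mark the word CCGGAAG or its reverse complement CTTCCGG, which is the core of sites bound by ETS transcription factors. LSM3, SF3B6, LSM5 and SNRPD2 were higher, and PRPF4 and SNRNP40 were lower.
LSM3 (chr3:14178567-14178866, plus strand): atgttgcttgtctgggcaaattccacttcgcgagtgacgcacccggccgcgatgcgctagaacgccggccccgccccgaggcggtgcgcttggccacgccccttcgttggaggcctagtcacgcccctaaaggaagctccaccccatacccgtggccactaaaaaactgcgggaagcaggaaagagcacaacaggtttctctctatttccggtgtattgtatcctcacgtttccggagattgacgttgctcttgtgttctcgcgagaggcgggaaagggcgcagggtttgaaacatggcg
SF3B6 (chr2:24076277-24076576, minus strand): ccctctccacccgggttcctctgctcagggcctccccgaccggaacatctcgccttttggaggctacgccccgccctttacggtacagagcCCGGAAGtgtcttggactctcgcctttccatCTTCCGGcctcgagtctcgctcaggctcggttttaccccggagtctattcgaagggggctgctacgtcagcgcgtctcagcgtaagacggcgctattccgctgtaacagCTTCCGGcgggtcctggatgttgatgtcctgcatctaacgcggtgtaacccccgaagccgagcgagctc
LSM5 (chr7:32490331-32490630, minus strand): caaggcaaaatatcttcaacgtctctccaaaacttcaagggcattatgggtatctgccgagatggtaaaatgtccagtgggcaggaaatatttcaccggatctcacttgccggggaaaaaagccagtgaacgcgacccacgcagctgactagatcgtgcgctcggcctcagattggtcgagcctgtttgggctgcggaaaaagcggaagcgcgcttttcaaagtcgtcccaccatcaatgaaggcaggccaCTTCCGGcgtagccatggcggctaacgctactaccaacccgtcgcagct
SNRPD2 (chr19:45692267-45692566, minus strand): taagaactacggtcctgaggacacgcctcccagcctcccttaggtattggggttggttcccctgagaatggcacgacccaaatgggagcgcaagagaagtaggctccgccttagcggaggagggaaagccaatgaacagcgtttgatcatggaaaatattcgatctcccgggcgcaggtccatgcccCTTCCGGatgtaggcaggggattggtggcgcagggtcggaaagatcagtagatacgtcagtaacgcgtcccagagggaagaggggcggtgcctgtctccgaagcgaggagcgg
PRPF4 (chr9:113275408-113275707, plus strand): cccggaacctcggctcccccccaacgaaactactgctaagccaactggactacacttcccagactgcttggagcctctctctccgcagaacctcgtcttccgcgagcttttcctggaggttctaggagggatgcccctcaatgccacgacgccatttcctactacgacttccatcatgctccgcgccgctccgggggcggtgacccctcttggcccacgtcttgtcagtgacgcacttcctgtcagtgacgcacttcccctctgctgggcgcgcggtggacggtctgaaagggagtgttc
SNRNP40 (chr1:31296739-31297038, minus strand): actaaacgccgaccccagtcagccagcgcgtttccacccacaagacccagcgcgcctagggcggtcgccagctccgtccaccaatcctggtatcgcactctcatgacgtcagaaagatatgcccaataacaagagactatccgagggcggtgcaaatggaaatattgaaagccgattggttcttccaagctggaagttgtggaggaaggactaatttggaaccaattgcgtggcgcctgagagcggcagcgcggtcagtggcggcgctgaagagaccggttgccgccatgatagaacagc

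RefSeq promoters were matched for 37 of the 42 members by symbol. The ETS word stood on either strand in 19 of these 37 promoters (51.4%), against 21.2% of the promoters of 9000 tested coding genes and 10.7% of all 27305 promoters of the same length. It was in 5 of the 7 promoters of higher members, in 0 of the 3 of lower members and in 14 of the 27 of the remaining members (51.9%). The SF3B6 window holds it 3 times, the LSM5 and SNRPD2 windows 1 time each, and the windows of LSM3, PRPF4 and SNRNP40 do not hold these letters. By the outermost 5′ ends in GENCODE 29, the windows of LSM3, LSM5, SNRPD2, SNRPG and PRPF4 lie wholly inside the gene. The SNRPE window lies almost wholly inside it. Words in these windows may therefore lie after a start of transcription, which limits the comparison of higher with lower members. These are matches of letters, not mapped binding sites.

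Other words were less frequent or closer to the background. The GC box GGGCGG was in 24 of 37 member promoters (64.9%), against 71.7% of tested coding genes, and in all 3 lower members. CCAAT was in 15 (40.5% against 37.5%), the YY1 word AAGATGGCG in 3 (8.11% against 4.37%) and the NRF1 palindrome of 10 letters in 1, LSM7 (2.70% against 2.53%). The TATA box TATAAA was in SNRPC alone (2.70% against 5.16%) and the E-box CACGTG in SF3B1 and SNRNP48 (5.41% against 10.1%). All words were searched on both strands, none holds another, and in SNRPC the ETS word overlaps its own reverse complement.

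Among the Sm ring genes, 4 of 7 were higher, 0 lower and 3 neither, beside 9.70% higher and 21.3% lower among all tested genes, and the median log2 ratio was 1.04. With total counts 0 of the 7 were higher, and likewise with the length and GC correction. SNRPE had 2168 counts (142 CPM) in THZ1 counts in THZ1 and 1222 in DMSO (55.4 CPM) in DMSO, a log2 ratio of 1.35 (1.25 to 1.45). SNRPF, which pairs with SNRPE and SNRPG in a subcomplex during ring assembly, had 1776 counts (116 CPM) in THZ1 and 1016 (46.1 CPM) in DMSO, with a ratio of 1.33 (1.22 to 1.44). SNRPG had 1506 counts (98.3 CPM) in THZ1 and 1052 (47.7 CPM) in DMSO, a ratio of 1.04 (0.93 to 1.16). On the TMM scale the genes of this E, F and G subcomplex all lay above the 2-fold line, SNRPG only just. With total counts SNRPE was at 0.84, SNRPF at 0.82 and SNRPG at 0.53, and with the length and GC correction they were at 0.52, 0.59 and 0.21.

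SNRPD2, which binds SNRPD1 before the ring closes, had 2709 counts (177 CPM) in THZ1 and 1796 (81.5 CPM) in DMSO, with a ratio of 1.12 (1.03 to 1.21), which was 0.60 with total counts. Its partner SNRPD1 had 7131 counts in THZ1 and 6489 in DMSO, and its ratio of 0.66 (0.61 to 0.71) stayed within 2-fold. SNRPD3, which pairs with SNRPB, had 1412 counts in THZ1 and 1070 in DMSO and a ratio of 0.93 (0.81 to 1.04). SNRPB, which gives rise to the SmB and SmB′ proteins, stood apart from the other Sm genes: it had 597 counts in THZ1 and 893 in DMSO, with a ratio of −0.06 (−0.21 to 0.10). Of the exonic bases of SNRPB 20% overlap AL049650.1, a coding gene on the same strand with 0 counts in each library. For SNRPD3 12% overlap GGT1 on the same strand, which had 2 counts in each library. Whether reads in those shared bases were counted or dropped is unknown. SNRPE, SNRPF and SNRPG have 10, 4 and 20 annotated pseudogenes, so that reads of near-identical copies can be lost or shared. SNRPGP15, the one pseudogene with 30 or more counts in a library, had 20 counts in THZ1 and 32 in DMSO. With the counts of those pseudogenes added, SNRPG came to 0.99 and dropped below the 2-fold line.

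**Figure D2:**
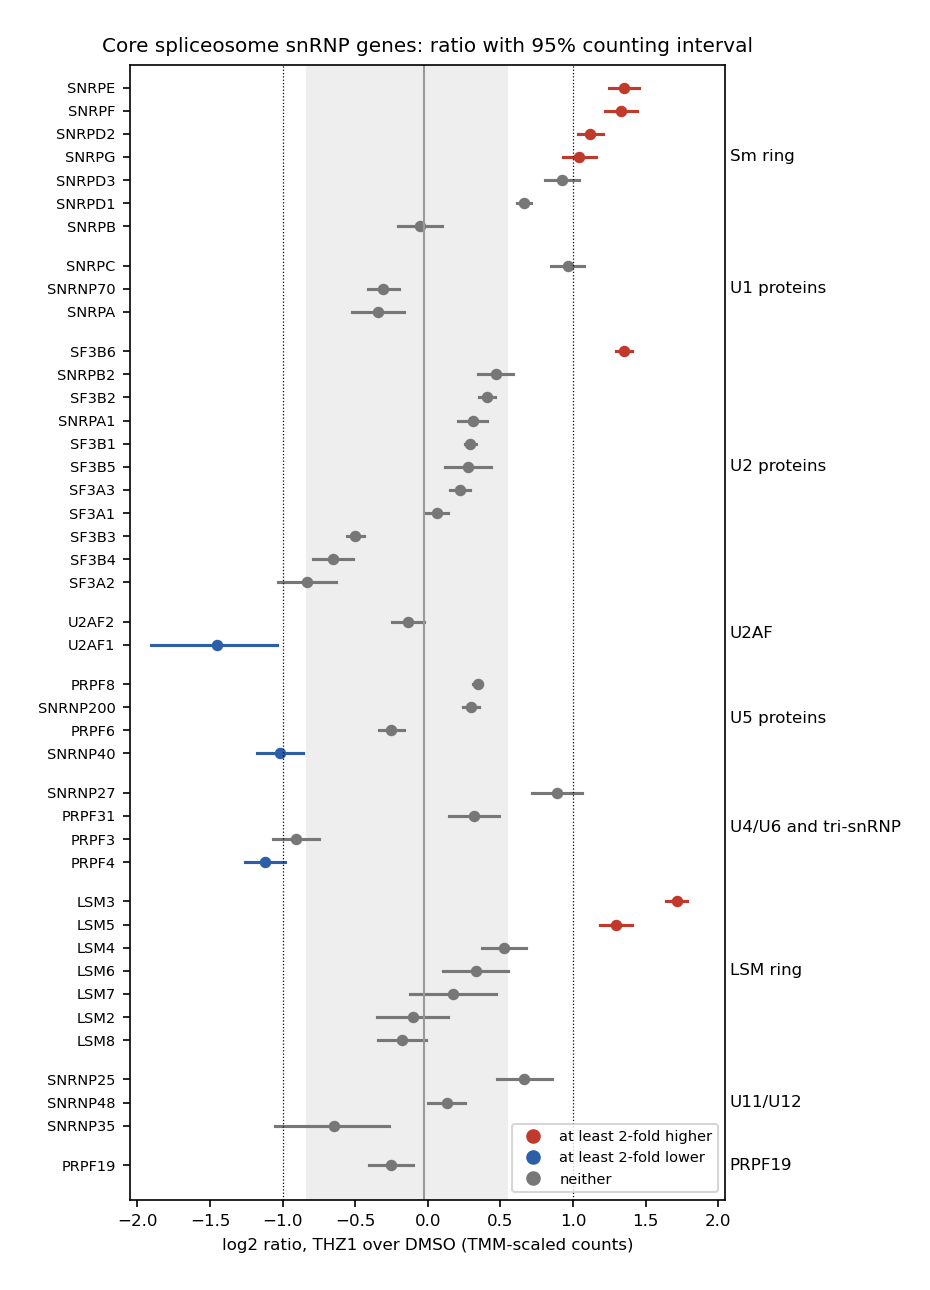
log2 ratio of THZ1 over DMSO for each member with its 95% counting interval, by role; the grey band spans the quartiles of all tested genes (−0.83 to 0.55), the grey line their median and the dotted lines a 2-fold difference. LSM3, SF3B6, SNRPE, SNRPF, LSM5, SNRPD2 and SNRPG lie right of the upper dotted line, and U2AF1, PRPF4 and SNRNP40 left of the lower one.

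The LSM2 to LSM8 ring of U6 had 2 genes higher, 0 lower and 5 neither, beside 9.70% higher and 21.3% lower among all tested genes, and a median of 0.33. With total counts LSM3 alone was higher and the median was −0.19. LSM3 had the highest ratio of all members, 1.71 (1.64 to 1.78), with 5272 counts (344 CPM) in THZ1 and 2313 (105 CPM) in DMSO, a 3.28-fold difference. LSM5 had 1853 counts (121 CPM) in THZ1 and 1086 (49.3 CPM) in DMSO, with a ratio of 1.30 (1.19 to 1.41), which was 0.78 with total counts. The remaining genes of the ring were nearer to 0, from LSM4 at 0.52 (709 counts in THZ1 and 710 in DMSO) and LSM6 at 0.33 (309 counts in THZ1 and 354 in DMSO) to LSM8 at −0.18. LSM7 was at 0.17 (−0.12 to 0.47), with 174 counts in THZ1 and 222 in DMSO. LSM2 was at −0.10 (−0.35 to 0.14), with 228 counts in THZ1 and 353 in DMSO. The intervals of these last genes include 0. LSM8 is the subunit that marks the nuclear ring, while LSM1 takes its place in the cytoplasmic ring that promotes mRNA decay. LSM8 had 470 counts in THZ1 and 765 in DMSO, whereas LSM1 had 432 in THZ1 and 348 in DMSO and a ratio of 0.84 (0.63 to 1.05).

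Of the 3 U1 proteins, 0 were called, beside 9.70% higher and 21.3% lower among all tested genes. SNRPC, which helps U1 bind the 5′ splice site, had 1492 counts (97.4 CPM) in THZ1 and 1100 (49.9 CPM) in DMSO, and its ratio of 0.96 (0.85 to 1.08) lay just under 2-fold. With the length and GC correction it was 0.23. SNRNP70, which docks on stem loop I of U1 RNA, went the other way, with 1111 counts in THZ1 and 1976 in DMSO and a ratio of −0.31 (−0.41 to −0.20). SNRPA, which binds another stem loop of U1 RNA, had 386 counts in THZ1 and 704 in DMSO and a ratio of −0.34 (−0.52 to −0.16).

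Among the 11 U2 proteins 1 was higher (9.09%), 0 were lower and 10 were neither, with a median of 0.28. Among all tested genes 9.70% were higher and 21.3% lower. The higher one, SF3B6, encodes the small p14 subunit that contacts the branch point adenosine. It had 7734 counts (505 CPM) in THZ1 and 4356 (198 CPM) in DMSO, with a ratio of 1.35 (1.30 to 1.41), which was 0.84 with total counts. The large scaffold subunit SF3B1, often mutated in myeloid neoplasms, had 10672 counts in THZ1 and 12547 in DMSO and a ratio of 0.29 (0.25 to 0.33). SF3B2 was at 0.41, with 5214 counts in THZ1 and 5660 in DMSO, and the small SF3B5 at 0.28, with 598 counts in THZ1 and 710 in DMSO. In SF3A, SF3A3 was at 0.22 (3154 counts in THZ1 and 3890 in DMSO) and SF3A1 at 0.06 (2451 counts in THZ1 and 3381 in DMSO). On the TMM scale the intervals of SF3B1, SF3B2, SF3B5 and SF3A3 lay above 0 and within 2-fold, while that of SF3A1 held 0. SNRPB2 and SNRPA1, the pair that binds stem loop IV of U2 RNA, were at 0.47 (1074 counts in THZ1 and 1118 in DMSO) and 0.31 (1585 counts in THZ1 and 1841 in DMSO). Below 0, with intervals that exclude it, lay SF3B3 at −0.50 (3719 counts in THZ1 and 7567 in DMSO), SF3B4 at −0.65 (645 counts in THZ1 and 1458 in DMSO) and SF3A2 at −0.83. SF3A2 had 290 counts in THZ1 and 743 in DMSO, and 12.7% of its exonic bases overlap PLEKHJ1 on the opposite strand. Subunits of SF3A and of SF3B therefore spread over both sides of 0.

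U2AF1 had the lowest ratio of all members, −1.45 (−1.91 to −1.04), with 57 counts (3.72 CPM) in THZ1 and 226 (10.2 CPM) in DMSO. It encodes the small U2AF subunit, which reads the AG of the 3′ splice site. Its value is uncertain, since GRCh38 carries a second locus, U2AF1L5, whose transcript differed from that of U2AF1 at 0 of 897 aligned bases, and reads that map to both can be dropped. U2AF1L5 had 3 counts in THZ1 and 4 in DMSO. The large subunit U2AF2, which binds the polypyrimidine tract, had 1162 counts in THZ1 and 1838 in DMSO and a ratio of −0.14 (−0.24 to −0.03).

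Among the 4 U5 proteins, SNRNP40 was lower and the other 3 were neither, beside 21.3% lower and 9.70% higher among all tested genes. SNRNP40, a WD40 repeat protein, had 428 counts (27.9 CPM) in THZ1 and 1247 (56.6 CPM) in DMSO, and its ratio of −1.02 (−1.18 to −0.86) lay just past 2-fold. With DESeq2 size factors it was −0.99 and no longer called. PRPF8, the scaffold of the catalytic core, had 13518 counts in THZ1 and 15341 in DMSO and a ratio of 0.34 (0.31 to 0.38). The helicase gene SNRNP200, whose product unwinds U4 from U6, had 5087 counts in THZ1 and 5964 in DMSO and a ratio of 0.30 (0.24 to 0.35). With the length and GC correction PRPF8 was at 0.89 and SNRNP200 at 0.80. PRPF6, which bridges U5 to U4/U6, had 1694 counts in THZ1 and 2900 in DMSO and a ratio of −0.25 (−0.34 to −0.16).

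The 4 U4/U6 and tri-snRNP genes were split. Of them 1 was lower and 0 were higher, beside 21.3% lower and 9.70% higher among all tested genes. PRPF4 was lower, with 578 counts (37.7 CPM) in THZ1 and 1811 (82.1 CPM) in DMSO and a ratio of −1.12 (−1.26 to −0.99). PRPF3, whose product forms a complex with PRPF4 on U4/U6, had 459 counts in THZ1 and 1238 in DMSO and a ratio of −0.91 (−1.06 to −0.75), just inside 2-fold. PRPF31, which binds the U4 RNA, stood on the other side at 0.32 (0.15 to 0.49; 523 counts in THZ1 and 603 in DMSO), and 10% of its exonic bases overlap the opposite-strand gene TFPT. SNRNP27, a tri-snRNP protein, was at 0.89 (0.72 to 1.06; 655 counts in THZ1 and 509 in DMSO). Of its exonic bases 10.4% overlap MXD1 on the same strand, which had 79 counts in THZ1 and 175 in DMSO. PRPF3, PRPF8, PRPF31, PRPF6, PRPF4 and SNRNP200 are known as genes of inherited retinitis pigmentosa, and their ratios ran from the −1.12 of PRPF4 to the 0.34 of PRPF8.

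Of the 3 U11/U12 proteins, 0 were called, beside 9.70% higher and 21.3% lower among all tested genes. SNRNP25 was at 0.67 (0.47 to 0.86; 475 counts in THZ1 and 431 in DMSO), SNRNP48 at 0.13 (0.00 to 0.26; 893 counts in THZ1 and 1175 in DMSO) and SNRNP35, the minor counterpart of SNRNP70, at −0.65 (−1.05 to −0.27; 80 counts in THZ1 and 181 in DMSO). SNRNP35 shares 40.1% of its exonic bases with the opposite-strand gene RILPL1, and without a stated strand setting it is unknown how reads in those bases were counted. PRPF19, a ubiquitin ligase that activates the spliceosome, had 544 counts in THZ1 and 933 in DMSO and a ratio of −0.25 (−0.41 to −0.10).

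Levels within the rings were compared per kilobase of exonic length, scaled to a sum of 1000000 over all genes of 1 library (TPM). These values compare genes inside a library and not the libraries with each other. In the THZ1 library the Sm ring ran from SNRPD2 at 237 TPM and SNRPE at 207 TPM to SNRPB at 65.6 TPM, a 3.61-fold span. In the DMSO library it ran from SNRPD1 at 252 TPM to SNRPF at 63.7 TPM, a 3.96-fold span, with SNRPB at 133 TPM in the middle. The order depends on the length used, since with the length of the transcript that has the longest coding sequence the DMSO order ran from SNRPG at 249 TPM to SNRPD3 at 75.7 TPM. SNRPB was lowest in the THZ1 library by either length, though 20% of its exonic bases are shared with AL049650.1 and reads there may not be counted. By exonic length the LSM ring had an 18.3-fold span in THZ1 from LSM3 at 194 TPM to LSM8 at 10.6 TPM and a 6.84-fold span in DMSO from LSM3 at 116 TPM to LSM6 at 16.9 TPM. By the other length the span in THZ1 was 10.1-fold, from LSM3 at 138 TPM to LSM6 at 13.7 TPM, and in DMSO 5.61-fold, from LSM4 at 110 TPM to LSM6 at 19.6 TPM. By exonic length SF3B6 had the highest level of all members, 908 TPM in THZ1 and 694 TPM in DMSO.

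The members that were higher have few exons, from 3 in SNRPD2 to 5 in SNRPE, SNRPF, SNRPG and LSM5. Over the 42 members, Spearman's rho of the ratio was −0.42 with the number of exons and −0.37 with the GC content of the transcript, as a description of points that come from the same 2 libraries. Over the tested coding genes the same values were 0.09 and −0.21. For transcript length rho was −0.19 over the members and −0.17 over the tested coding genes, and for gene span −0.13 and 0.08. The 7 higher members had a median GC content of 41.2%, against 51.2% for all members and 48.0% for tested coding genes, and a median transcript length of 901 bases, against 1730.5 and 3201. Exon number and GC content thus moved with the ratio among the members, transcript length less so. When each ratio was set against the median of tested coding genes of like transcript length and GC content, LSM3 alone was still higher by the rule (1.89), while LSM5 was at 0.93, SNRPD2 and SF3B6 at 0.61, SNRPF at 0.59, SNRPE at 0.52 and SNRPG at 0.21. The value of LSM3 rests on the transcript used, which has 3815 bases, far above the median of 901 for the higher members. LSM3 was therefore set against longer genes than most of them, and a shorter transcript was not tried. U2AF1 (−1.96), SNRNP40 (−1.15) and, at the 2-fold line, PRPF4 were still lower, and LSM8 (−1.01) and SNRNP35 (−1.16) joined them.

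**Figure D3:**
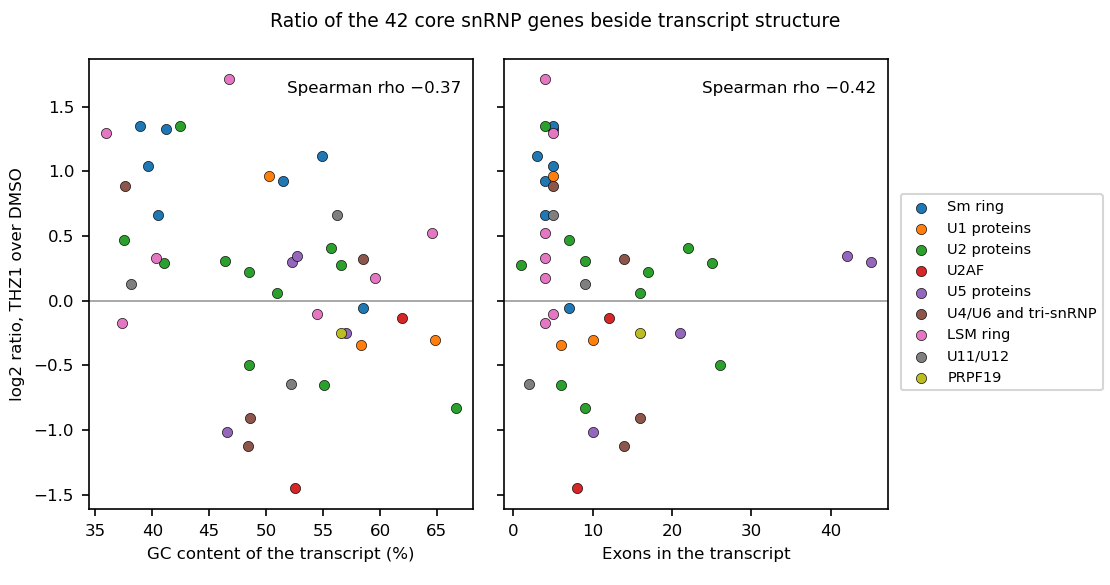
log2 ratio of each member against the GC content of its transcript in percent (left) and its number of exons (right), coloured by role. The higher members have 3 to 5 exons and, except SNRPD2 at 54.9%, a GC content at or below the 46.8% of LSM3, with PRPF8 and SNRNP200 at the far right of the exon axis near 0.3.

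Several members start close to a coding gene on the opposite strand. By the outermost 5′ ends in GENCODE 29, 13 members have such a tested neighbour within 1000 bases, a rule set after the values were seen. On the TMM scale the ratios had opposite signs in 8 of the 13 pairs. Some of these signs are not resolved by the counts. For SF3A1 and CCDC157 both intervals held 0. The interval of TFPT, the neighbour of PRPF31, also held 0 (−0.76 to 0.32), as did that of QPCTL, the neighbour of SNRPD2 (−0.82 to 0.05). The share of such pairs over all genes was not computed. The sign of each ratio depends on the library scaling, but the difference within a pair does not. LSM3 was at 1.71. The outermost 5′ end of XPC, a DNA damage sensor gene, lies 425 bases from that of LSM3. XPC was at −1.39 (−1.67 to −1.13), with 146 counts in THZ1 and 553 in DMSO, a difference of 3.11. LSM5 was at 1.30 and AVL9 at −1.54 (−1.77 to −1.33), a difference of 2.84. The RefSeq start of LSM5 lies further inside the gene, and by that start this pair would not meet the 1000-base rule. These members stood far above their neighbours. SNRPD3 was at 0.93 and GUCD1 at −1.24 (−1.43 to −1.07). With the length and GC correction XPC (−0.86), GUCD1 (−0.81) and ACTMAP (−0.94), the neighbour of SNRPA, were no longer called.

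SNRNP40 and PRPF4 stood below their neighbours, while U2AF1 has none by this rule. SNRNP40 was at −1.02, while ZCCHC17 on the other strand was higher, at 1.14, with 947 counts in THZ1 and 617 in DMSO (0.63 and not called with total counts). PRPF4 was at −1.12 and CDC26, a subunit gene of the anaphase-promoting complex, at 0.87 (0.66 to 1.08; 427 counts in THZ1 and 337 in DMSO). Other pairs lay close together, such as SNRNP25 (0.67) with POLR3K (0.74) and SF3B6 (1.35) with FAM228B (0.82). Of the 13 neighbours 4 were lower and 1 was higher, beside 22.0% lower and 7.61% higher among tested coding genes. Exons overlap by 321 bases for SNRPD3 and GUCD1, 318 for LSM3 and XPC, 266 for PRPF31 and TFPT and 218 for SF3A1 and CCDC157. The overlap is 208 bases for PRPF4 and CDC26, 153 for SNRNP25 and POLR3K and 89 for SNRPA and ACTMAP. It is 54 bases for SNRPD2 and QPCTL and 6 for LSM7 and SPPL2B. No strand setting is given, so whether reads in the shared bases were counted for the right gene is unknown.

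**Figure D4:**
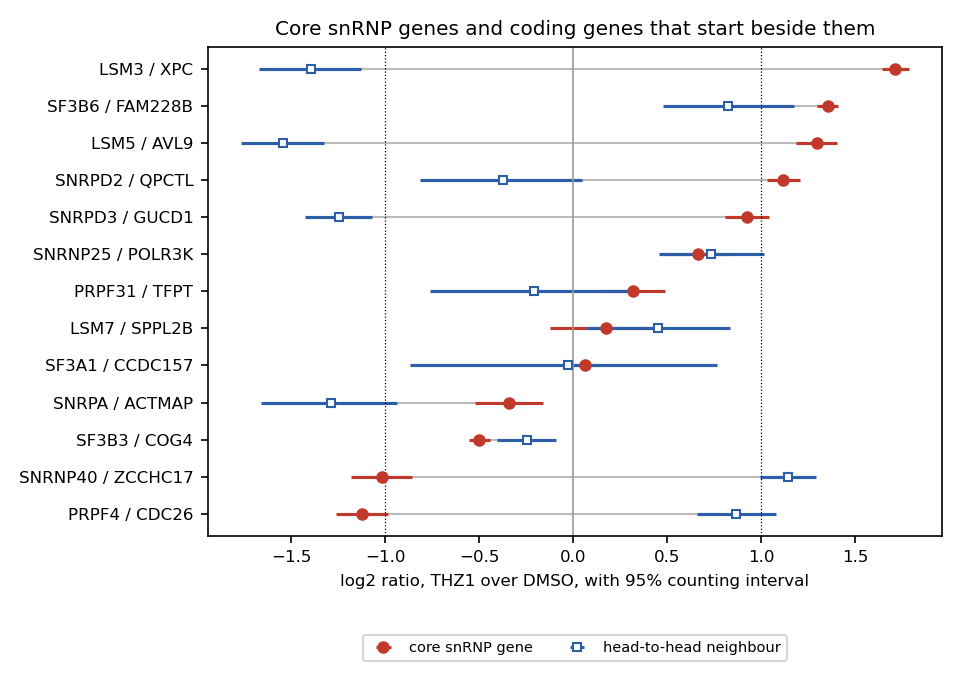
log2 ratio of THZ1 over DMSO with its 95% counting interval for the 13 members (filled circles) and for the coding gene that starts beside each on the opposite strand (open squares); grey lines join a pair. LSM3, LSM5 and SNRPD3 lie far to the right of their neighbours, and SNRNP40 and PRPF4 far to the left.

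The wider spliceosome pathway was described with 6 further lists, 84 genes in all, of which 19 were lower (22.6%) and 5 higher (5.95%), close to the 21.3% lower and 9.70% higher among all tested genes. The list that builds snRNPs stood lowest: of 18 assembly genes 9 were lower and 1 was higher, with a median of −1.12, beside 21.3% lower among all tested genes. GEMIN4 (−3.14, −3.52 to −2.80; 71 counts in THZ1 and 905 in DMSO) and DDX20 (−3.04, −3.29 to −2.81; 159 counts in THZ1 and 1892 in DMSO) encode partners in the SMN complex, which loads the Sm ring onto the RNA. COIL, the scaffold of Cajal bodies where snRNPs mature, was at −2.51 (−2.76 to −2.28; 164 counts in THZ1 and 1347 in DMSO). GEMIN2, GEMIN5, GEMIN6, GEMIN7, TGS1 and SART3 were also lower, and CLNS1A, which chaperones free Sm proteins, was higher at 1.19 (1.10 to 1.28), though with total counts 0 assembly genes were higher. The median of the Sm genes and that of the assembly genes thus lay on opposite sides of the median of all genes. SMN1 (0.59) and SMN2 (0.21) are near-identical, with 2 mismatches in 1536 aligned bases, and their values are uncertain.

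**Figure D5:**
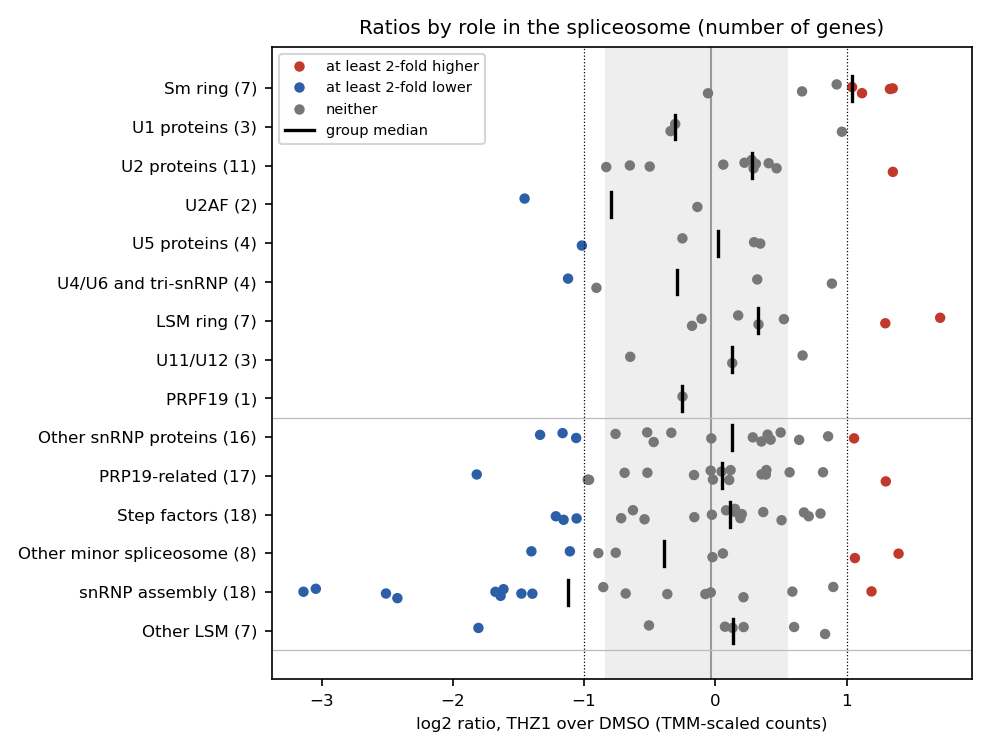
log2 ratio of THZ1 over DMSO for every member by role (upper 9 rows) and for the 6 lists of other spliceosome genes (lower rows); black bars mark group medians, the grey band the quartiles of all tested genes and dotted lines a 2-fold difference. The Sm ring has the highest median, 1.04, and the assembly list the lowest, −1.12.

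In the other lists the shares of lower genes ran from 5.88% to 25%, beside 21.3% among all tested genes, and those of higher genes from 0% to 25%, beside 9.70%. Among 16 other snRNP proteins 3 were lower and 1 higher, and the U1-associated genes LUC7L (−1.33) and LUC7L2 (−1.16) and the U5 protein gene CD2BP2 (−1.06) were the lower ones. The 17 PRP19-related genes had 1 lower (CWC22, −1.82; 401 counts in THZ1 and 2036 in DMSO) and 1 higher (CWC27, 1.30; 4153 counts in THZ1 and 2428 in DMSO), and RBM22 stood at −0.97. Of 18 step factors and helicases 3 were lower, namely MFAP1 (−1.21), PRPF39 (−1.16) and PRPF38B (−1.06), and 0 were higher. The 8 other minor spliceosome genes had 2 lower and 2 higher, including ARMC7 (−1.40), PDCD7 (−1.11) and ZCRB1 (1.40). Among 7 other LSM genes LSM11, a U7 snRNP subunit that serves histone mRNA processing, was lower (−1.80, −2.20 to −1.45; 73 counts in THZ1 and 369 in DMSO) and 0 were higher, with LSM1 at 0.84 and NAA38 at 0.60. With total counts CWC27 (0.78) and ZCRB1 (0.88) were no longer called, and with the length and GC correction neither were CD2BP2 (−0.62) and PDCD7 (−0.76).

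On GRCh38 with GENCODE 29, LSM3 (ENSG00000170860) spans chromosome 3 from 14178358 to 14201119, SF3B6 (ENSG00000115128) chromosome 2 from 24067584 to 24076443 and SNRPE (ENSG00000182004) chromosome 1 from 203861603 to 203870550. SNRPF (ENSG00000139343) spans chromosome 12 from 95858928 to 95903828, LSM5 (ENSG00000106355) chromosome 7 from 32485332 to 32495283, SNRPD2 (ENSG00000125743) chromosome 19 from 45687454 to 45692569 and SNRPG (ENSG00000143977) chromosome 2 from 70281362 to 70293771. Of the lower genes, U2AF1 (ENSG00000160201) spans chromosome 21 from 43092956 to 43107587, PRPF4 (ENSG00000136875) chromosome 9 from 113275343 to 113292905 and SNRNP40 (ENSG00000060688) chromosome 1 from 31259568 to 31296782.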

How the data were processed

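Libraries were prepared from total RNA with a KAPA mRNA kit, according to the labels' protocols. The authors deposited raw counts of reads for each Ensembl gene, whole numbers without normalization. Per the submitters' processing notes, HISAT2 2.1.0, Trimmomatic 0.38, featureCounts 1.6.0 and the build GRCh38 were used. Not given in the sources used here are how multi-mapped reads were handled, the strand setting and the annotation release.

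Symbols came from a gene name table and GENCODE 29, in which 58611 of 58884 IDs were found. Genes that reached 30 counts in either library entered TMM scaling (edgeR 4.0.16, R 4.3.3), with effective sizes of 15320940 for THZ1 and 22049153 for DMSO. Ratios had 0.5 added to each count, and intervals are exact Clopper-Pearson intervals of the THZ1 share. Calls were made over all tested genes and run on simulated counts. The simulation held only the counting noise that the intervals assume, so it says nothing on PCR copies or the spread between cultures. In the 6 further lists up to 3 genes with ratios furthest from 0 and 100 or more counts are named, and genes outside that rule (GEMIN2, GEMIN5, GEMIN6, GEMIN7, TGS1, SART3, CLNS1A, SMN1, SMN2 and the neighbouring genes) were named after their values were seen. Members and lists were chosen with earlier results of these data known. Alternatives were other scalings (total counts, DESeq2 1.42.0 size factors, upper quartile, mitochondrial mRNAs), count minimums, call rules, 5 added counts, pseudogene counts and a length and GC correction. Python 3.11.15, scipy 1.17.1 and matplotlib 3.10.9 were used.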

Additional observations from a re-analysis of the deposited data

How the results depend on the processing

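The members' median of 0.28 became −0.23 with total counts and −1.41 with the mitochondrial reference, with 8 members lower and 1 higher by total counts and 32 lower and 0 higher on the mitochondrial reference, because each scale shifts every ratio by the same amount. On the mitochondrial reference the ratios of SNRPD2 (−0.57), SNRPE (−0.34), SNRPF (−0.36), SNRPG (−0.65), SF3B6 (−0.34), LSM5 (−0.39), CWC27 (−0.39), ZCRB1 (−0.29) and ZCCHC17 (−0.55) turned below 0, as did the medians of the Sm ring (−0.65) and the LSM ring (−1.36), and LSM3 came to 0.02. With total counts the LSM ring median was −0.19. With length and GC correction 1 member was higher and 5 were lower, beside 8.78% higher and 19.6% lower among all tested genes. The cause was not tested. A 1.5-fold rule gave 12 higher and 7 lower members, beside 23.4% higher and 30.5% lower among all tested genes. An interval bound of at least 2-fold gave 6 higher and 1 lower, beside 5.38% higher and 15.0% lower among all tested genes. SNRPG, SNRNP40 and PRPF4 were no longer called under it. DESeq2 size factors, the upper quartile, count minimums of 1 and 100, coding genes only, 5 added counts and pseudogene counts left the counts of members within 1.5 times those reported. No paired analysis was possible because each group has 1 library. Neither was leaving out a replicate. Low counts limit U2AF1, SNRNP35 and LSM7 most.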
